A study of Mus musculus with 2 samples.

Results

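The E2F transcription factors, the pocket proteins that hold them in check, the DP partner Tfdp1 and the mitotic regulators Foxm1 and Mybl2 were examined in TGF-β-induced Treg (iTreg) cells after 1 day of differentiation with or without Tubastatin A (TSA). The 10 genes (E2f1, E2f2, E2f3, E2f4, E2f8, Rb1, Rbl1, Tfdp1, Foxm1 and Mybl2) were taken by symbol from 23238 distinct symbols in the tables. Naïve CD4+ T cells were isolated from spleens of wild-type female C57BL/6 mice aged 7 to 10 weeks. Both cultures were activated with antibodies to CD3 and CD28 and received TGF-β1 (5 ng/ml), IL-2 (1 ng/ml) and antibodies that neutralise IFN-γ and IL-4, with either DMSO (control) or 10 μM Tubastatin A, a selective inhibitor of the cytoplasmic deacetylase HDAC6. TSA stands for Tubastatin A throughout, not for trichostatin A. A single culture of each kind was sequenced, so there was 1 library per condition and no difference given below has a replicate check. The cells were not sorted for Foxp3 before RNA was taken, and the number of animals behind each culture was not given in the sources used here.

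E2F factors bind, as dimers with a DP protein, to promoters of genes that cells need to enter S phase. In resting cells pocket proteins (pRB, p107 and p130) cover the activating part of E2F, and cyclin-dependent kinases release it by phosphorylation when a T cell is activated through its antigen receptor and grows towards its first division. Later in the cycle a core complex called MuvB exchanges its pocket protein and repressor E2F for B-Myb (Mybl2) and then FoxM1, which switches on the genes of mitosis.

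The libraries were QuantSeq libraries, which sample only the 3′ end of each transcript. Counts therefore do not grow with transcript length, and levels of different genes could be set beside each other as normalized counts. The control library held 10846166 reads on genes and the TSA library 10432628. T cell markers were present (8 of 9 in the tables, all with reads, together 1719 CPM in the control and 1958 CPM in the TSA library, where CPM is the read count scaled to the total on genes of its library). The summed markers of CD8 T, B, myeloid and NK cells lay between 1.11 and 8.34 CPM in either library, and Pax5 and Klrb1c had no read in both.

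Treatment with TSA went with less RNA for 7 of the 10 genes, by more than counting error, and with more RNA for none of them by that measure. Foxm1 and E2f8 were lower by more than 2-fold, Mybl2, E2f2, Tfdp1, E2f3 and E2f4 were lower by smaller amounts, and for E2f1, Rb1 and Rbl1 no difference was detectable at this depth. Counting error is given throughout as an exact Clopper-Pearson 95% interval of the fold change, TSA over control, computed on the reads. It compares the 2 libraries, not the conditions. All 10 genes passed the minimum of 10 reads in at least 1 library. The share of all 12164 genes tested that were lower past 2-fold was 3.15%, against 2 of the 10 genes, and the share higher past 2-fold was 11.5%, against 0 of 10. An interval wholly below no change was found for 28.0% of the genes tested and one wholly above it for 28.1%. Because the lowest mean normalized count among the 10 genes was 215, for Foxm1, genes with a mean of at least 100 are the closer background. Of these 8188 genes, 1.31% were lower and 1.48% higher past 2-fold, and an interval lay wholly below no change for 36.5% and wholly above it for 23.4%. Past 1.5-fold, 3 of the 10 genes (Foxm1, E2f8 and Mybl2) were lower, beside 8.34% of all genes tested and 5.90% of those with a mean of at least 100. The median log2 fold change of the 10 genes was -0.45, beside 0.015 for all genes tested and -0.058 for those with a mean of at least 100. In bulk RNA, fewer cells that express a gene and less of its RNA per cell cannot be told apart.

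**Figure D1:**
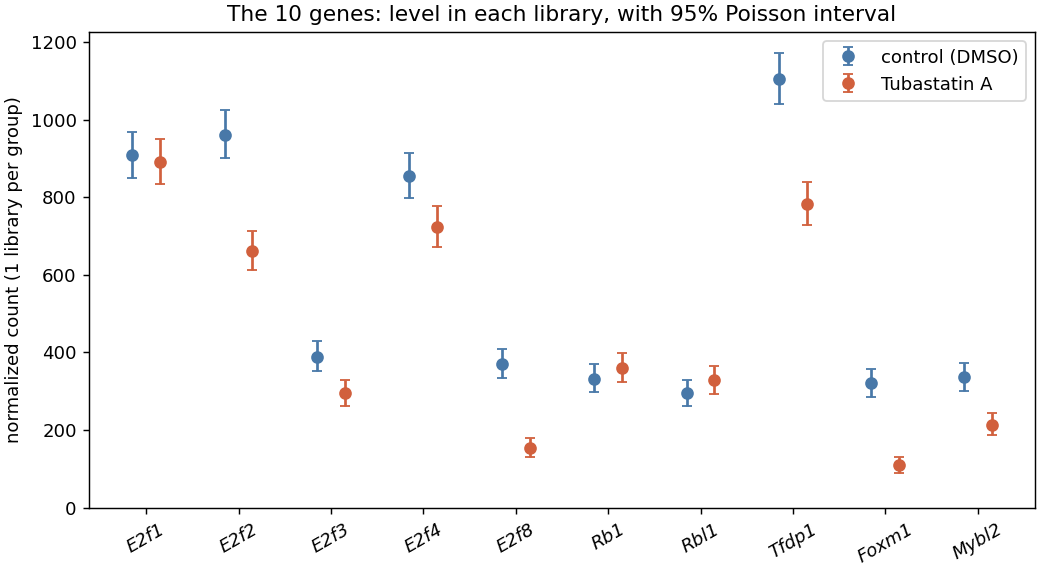
Normalized counts of the 10 genes in the control library (blue) and the TSA library (red), each point 1 library and each bar its 95% Poisson counting interval. The points of Foxm1 and E2f8 lie furthest apart for their level, while the bars of E2f1, Rb1 and Rbl1 overlap between the libraries.

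**Figure D2:**
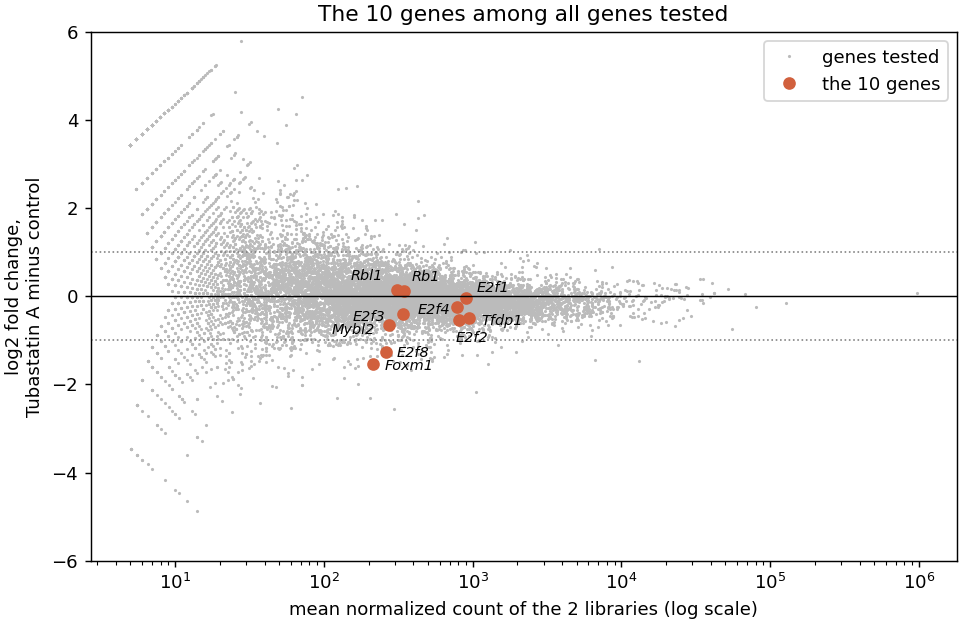
Log2 fold change (TSA minus control) against the mean normalized count of the 2 libraries on a log scale, for 12164 genes tested (grey) and the 10 genes (red), with dotted lines at 2-fold. Foxm1 and E2f8 lie below the lower dotted line and the other 8 between the lines.

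The activator E2F genes did not move together. E2f1, the best known driver of S-phase entry, had a normalized count of 907 in the control and 891 with TSA, a fold change of 0.981 (0.894 to 1.08). Its log2 fold change of -0.027 changed sign, to 0.043 and 0.015, with total-read and with upper-quartile scaling, so no direction was assigned to it. E2f2, an activator that is also known to restrain the proliferation of T cells in mice, was at 961 in the control and 662 with TSA, a fold change of 0.689 (0.623 to 0.761). E2f3, the third activator, was at 389 and 295, a fold change of 0.758 (0.649 to 0.883). Thus E2f2 and E2f3 were lower with TSA by more than counting error, and the counting intervals of E2f1 overlapped between the libraries. Set against E2f1 within the same libraries, which removes the scaling, the fold of E2f2 was 0.702 times (0.611 to 0.805) and that of E2f3 was 0.772 times (0.644 to 0.925) that of E2f1, while E2f2 and E2f3 did not differ beyond counting error (0.909, 0.756 to 1.09). These pairs of relatives were chosen after the values were seen.

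Among the repressor E2F genes, the canonical member E2f4 was slightly lower with TSA and the atypical member E2f8 had the lowest fold change of E2f1 to E2f8. E2f4, which works mainly with p107 and p130 in resting cells, had normalized counts of 855 in the control and 723 with TSA, a fold change of 0.846 (0.765 to 0.935). E2f8 represses without a DP partner or a pocket protein and is itself switched on late in G1 and S phase by other E2F factors. Its count was 370 in the control and 154 with TSA, a fold change of 0.418 (0.343 to 0.505), so its interval also held falls just short of 2-fold. E2f7, its closest relative and not among the 10 genes, had 237 and 223 (0.940, 0.779 to 1.13). The fold of E2f8 was 0.444 times (0.338 to 0.582) that of E2f7, so these atypical E2F genes differed from each other by more than counting error. The pocket-binding repressor E2f5 had 909 and 987 (1.09, 0.991 to 1.19), and E2f6, which represses together with Polycomb proteins, had 453 and 367 (0.811, 0.704 to 0.932). With total-read and with upper-quartile scaling the interval of E2f5 lay wholly above no change.

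Taking all reads of E2f1 to E2f8 in a library as 100% gives a picture that does not depend on the scaling between libraries. The shares of a library sum to 100%, so a share can grow because the reads of other genes fall. The activators E2f1, E2f2 and E2f3 held 44.4% of 5057 reads in the control library (exact 95% interval 43.0 to 45.8) and 42.9% of 4323 reads in the TSA library (41.5 to 44.4), and these intervals overlap. Of all E2F reads, E2f1 held 17.9% (16.8 to 18.9) in the control and 20.7% (19.5 to 21.9) with TSA, on 903 and 895 reads. The share of E2f2 went from 18.9% to 15.4% (14.3 to 16.5). For both genes the intervals do not overlap between the libraries. The share of E2f8 was 7.28% (6.58 to 8.03) in the control and 3.59% (3.05 to 4.18) in the TSA library, whereas E2f7 had 4.67% and 5.18%, with overlapping intervals. The share of E2f4 was 16.8% in each library, and E2f5 went from 17.9% (16.8 to 19.0) to 22.9% (21.7 to 24.2). The atypical genes E2f7 and E2f8 together held 11.9% (11.1 to 12.9) of E2F reads in the control and 8.77% (7.94 to 9.65) with TSA, and E2f4, E2f5 and E2f6 together 43.6% (42.3 to 45.0) and 48.3% (46.8 to 49.8).

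**Figure D3:**
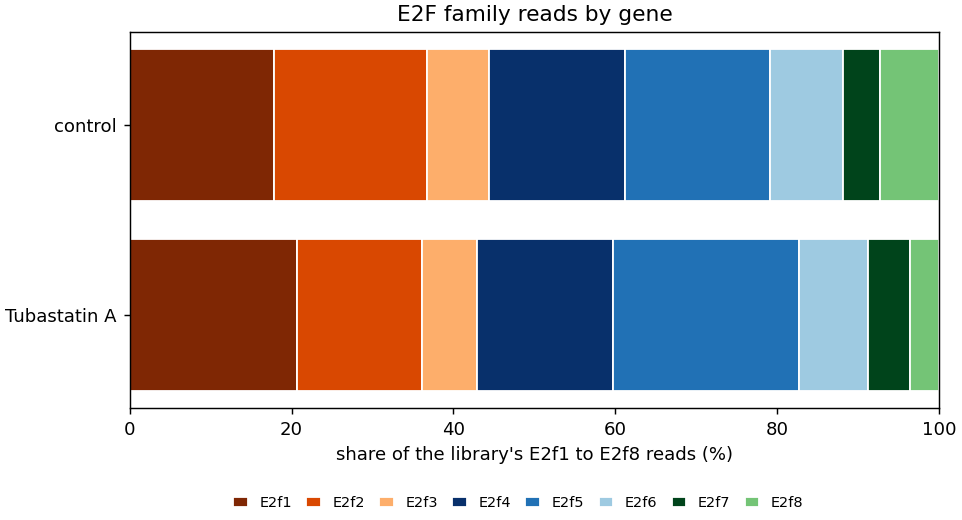
Share of each library's E2f1 to E2f8 reads by gene, in percent, with 1 bar per library and activators in orange tones, E2f4 to E2f6 in blue and E2f7 and E2f8 in green. The light green segment of E2f8 shrinks from 7.28% to 3.59%, and the blue segment of E2f5 grows from 17.9% to 22.9%. A segment can grow because the reads of other genes fall.

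No fall was detectable in the pocket protein genes. Rb1, which encodes pRB, the pocket protein that binds the activator E2F factors, had normalized counts of 333 in the control and 360 with TSA, a fold change of 1.08 (0.930 to 1.26). Rbl1 encodes p107 and is known as an E2F target itself. It had 294 in the control and 328 with TSA, a fold change of 1.11 with an upper limit of 1.31. Both intervals include no change. Rbl2, which encodes p130, the pocket protein that predominates in resting cells, and which lies outside the 10 genes, was higher in the TSA library, at 333 and 423 (1.27, 1.10 to 1.47). The folds of Rbl1 and Rbl2 did not differ beyond counting error (0.877, 0.705 to 1.09). Rb1 carries a reservation. Its 3′ end lies inside Rcbtb2, a gene on the opposite strand with 222 reads in the control and 77 in the TSA library, and the sources used here do not say whether counting used the strand. Reads of the 2 genes may therefore not be told apart. Gm17233, on the same strand as Rb1, also covers its 3′ end and was not matched in the tables.

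Tfdp1, which encodes DP1, the usual dimer partner of E2F1 to E2F6, was the most abundant of the 10 genes in the control library, at 1103, and had 783 with TSA, a fold change of 0.710 (0.647 to 0.778). The other DP gene, Tfdp2, went the opposite way, from 455 to 522 (1.15, 1.01 to 1.30). Tfdp1 accordingly held 70.8% (68.5 to 73.0) of DP reads in the control and between 57.3 and 62.6% (95% interval) in the TSA library.

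The mitotic regulators were both lower, Foxm1 more than Mybl2. Foxm1, the forkhead factor that drives genes of G2 and mitosis, had a normalized count of 321 in the control and 109 with TSA, a fold change of 0.343 (0.272 to 0.425), and was the gene of the 10 whose whole interval lay beyond 2-fold. Its 3′ end overlaps 2 annotated genes on the same strand, Tex52 and Gm44596. Tex52, listed under its older symbol 4933413G19Rik, had 3 reads in the control and 1 in the TSA library, and Gm44596 was not matched in the tables, so its reads were not checked. Mybl2, which encodes B-Myb, had 336 and 214, a fold change of 0.639 (0.534 to 0.759). The fold of Foxm1 was 0.536 times (0.402 to 0.712) that of Mybl2. The intervals of the relatives of Mybl2 did not overlap. Mybl1 had 83.4 and 40.8 (0.495, 0.328 to 0.719), past 2-fold with the deposited scaling but not with total-read or upper-quartile scaling, whereas Myb, a factor of immature and activated lymphocytes, had 361 and 411 (1.14, 0.987 to 1.32). With these 2 other scalings the interval of Myb lay wholly above no change.

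**Figure D4:**
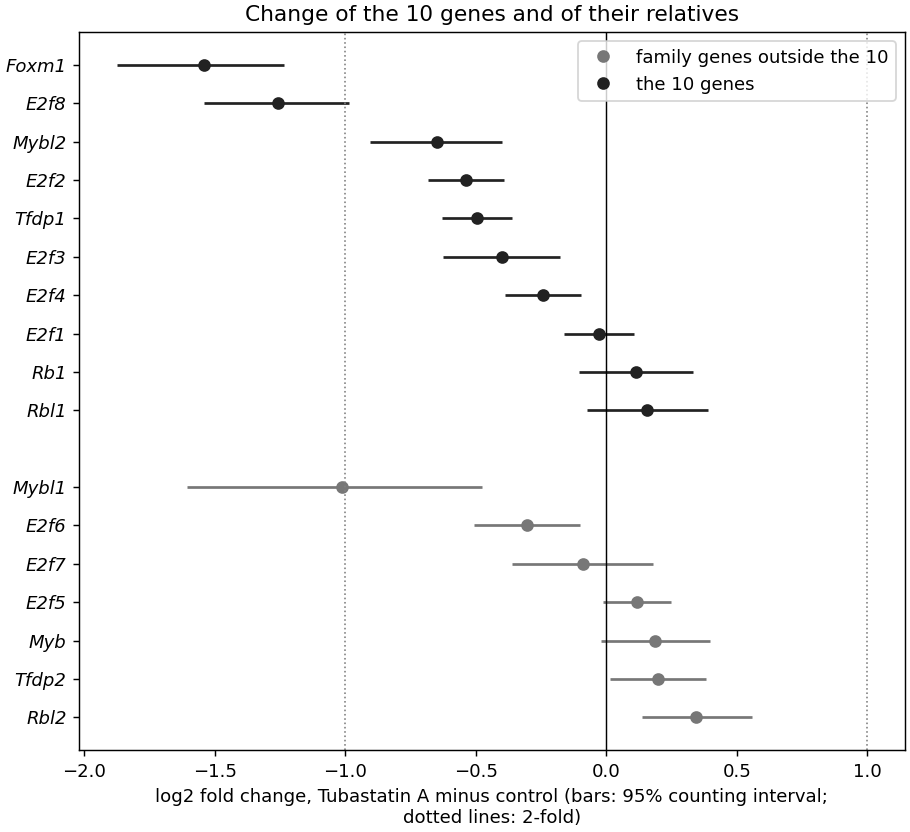
Log2 fold change (TSA minus control) of the 10 genes (black) and of 7 relatives outside them (grey), each with its 95% counting interval, and dotted lines at 2-fold. The black points run from Foxm1 at -1.54 to Rbl1 at 0.16, and the grey points from Mybl1 at -1.01 to Rbl2 at 0.35.

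The order of the levels differed between the libraries. In the control library Tfdp1 came first with 1098 reads, 1.15 times (1.05 to 1.25) the next gene, E2f2. E2f2, E2f1 and E2f4 followed with 956, 903 and 851 reads, and neighbours among them did not differ beyond counting error. After a step of 2.20 (1.95 to 2.49) came E2f3, E2f8, Mybl2, Rb1, Foxm1 and Rbl1, from 387 down to 293 reads, again with no neighbours separated. In the TSA library E2f1 came first with 895 reads, 1.14 times (1.03 to 1.25) Tfdp1 with 787. At the lower end of that library Mybl2 had 215 reads, E2f8 had 155 and Foxm1 had 110, and each step between them was larger than counting error (1.39, 1.12 to 1.72, and 1.41, 1.10 to 1.82). Ordered by fold change, the neighbours E2f8 and Mybl2 (0.655, 0.503 to 0.850) and E2f4 and E2f1 (0.862, 0.751 to 0.989) were separated beyond counting error. Between these breaks the order ran from Foxm1 to E2f8, from Mybl2 through E2f2, Tfdp1 and E2f3 to E2f4, and from E2f1 through Rb1 to Rbl1, with no neighbours separated. Over all 45 pairs of the 10 genes, 34 had folds that differed beyond the counting interval, with no correction for the number of pairs. The like share among pairs of other genes was not computed, so this count is not shown to be particular to the 10 genes.

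The 10 genes are protein-coding and are placed as follows in GENCODE M21 on GRCm38, the assembly called mm10 in the submitters' processing notes. E2f1 (154559407 to 154569892), Rbl1 (157145893 to 157204534) and Mybl2 (163054687 to 163084688) lie on chromosome 2, the former 2 on the minus strand. Foxm1 lies on chromosome 6 (128362967 to 128376146, plus strand) and E2f8 on chromosome 7 (48866429 to 48881596, minus strand). Tfdp1 (13338751 to 13378448) and E2f4 (105297663 to 105305370) lie on the plus strand of chromosome 8. E2f2 lies on chromosome 4 (136172394 to 136196057, plus strand), E2f3 on chromosome 13 (29906575 to 29986063, minus strand) and Rb1 on chromosome 14 (73183673 to 73325822, minus strand).

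Because several of these genes are known to be controlled by E2F or MuvB themselves, their promoter windows (RefSeq, GRCm38.p6, from 250 bases before to 50 bases after a start) were searched on both strands for 3 motifs, and 7 of the 10 genes were matched, with 10 windows. The E2F motif was searched as TTTCCCGC, TTTCGCGC, TTTGCCGC and TTTGGCGC. The CHR element, which MuvB binds, was searched as TTTGAA and TTCGAA, and the CCAAT box as CCAAT. No motif contains another. The 150 bases before the start are shown for 4 genes that differ in fold change and between them hold every motif searched for by name, in lower case with matches in capitals. A match on the opposite strand appears as its reverse complement.
E2f8, chr7:48881597-48881746, minus strand: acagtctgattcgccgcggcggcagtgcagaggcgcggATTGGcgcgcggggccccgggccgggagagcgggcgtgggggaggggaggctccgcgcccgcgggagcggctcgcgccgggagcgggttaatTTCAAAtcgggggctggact
E2f3, chr13:29986064-29986213, minus strand: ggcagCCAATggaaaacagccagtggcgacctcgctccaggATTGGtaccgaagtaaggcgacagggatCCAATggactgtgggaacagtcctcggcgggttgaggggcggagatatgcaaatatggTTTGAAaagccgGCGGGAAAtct
Tfdp1, chr8:13338601-13338750, plus strand: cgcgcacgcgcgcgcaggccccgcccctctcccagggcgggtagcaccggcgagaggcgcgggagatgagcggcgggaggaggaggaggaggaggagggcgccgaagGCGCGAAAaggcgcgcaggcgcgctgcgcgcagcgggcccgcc
Rbl1, chr2:157204535-157204684, minus strand: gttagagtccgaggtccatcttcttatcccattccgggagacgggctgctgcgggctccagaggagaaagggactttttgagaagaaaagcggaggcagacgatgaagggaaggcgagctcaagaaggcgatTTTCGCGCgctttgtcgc

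E2f8, the gene of these 4 that was lower past 2-fold, held a CHR element 20 bases and a CCAAT box 112 bases before the start and no E2F motif in these letters. E2f3 held both kinds, with a CHR element at 23 and an E2F motif at 11 bases before the start, besides 3 CCAAT boxes. Tfdp1 and Rbl1 held an E2F motif, at 43 and 18 bases before the start, and no CHR element, and their fold changes were 0.710 and 1.11. In E2f2, with a fold change of 0.689, the first window held an E2F motif 40 bases after the start and a CCAAT box, and the second a CHR element and 3 CCAAT boxes. No match to these letters was found in the windows of E2f1 and Mybl2, with fold changes of 0.981 and 0.639, or in the second window of E2f3. A site spelled with other letters would have been missed, so no match does not mean that a gene lacks a site. The E2f1 window precedes the RefSeq start, which lies inside the gene as GENCODE places it, so the bases before the GENCODE start of E2f1 were not searched. In total 5 of the 10 windows held an E2F motif, of which 2 are overlapping windows of Tfdp1 with the same site, beside 2.26% of 32851 windows of all genes. For CHR the number was 3 of 10, beside 19.2% of all windows, and for CCAAT it was 4 of 10, beside 37.4%. A match is a description of the letters and not evidence of binding.

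Textbook targets of E2F and of the mitotic regulators were then read beside them. Of 36 genes known as G1/S targets of E2F, all passed the minimum number of reads. Their median log2 fold change was -0.37, and 31 were lower by more than counting error, beside 28.0% of all genes tested and 36.5% of those with a mean of at least 100. The list held 1 gene that was higher by that measure, Ung, a DNA repair enzyme named after its value was seen. With total-read scaling 28 were lower. Only Ccne2 and Rrm2 passed 2-fold, both lower, beside 3.15% of all genes tested and 1.31% of those with a mean of at least 100. Every value below is a normalized count, control first, followed by the fold change. Ccne2, which encodes cyclin E2, went from 1891 to 793 (0.420, 0.386 to 0.456), and Ccne1, its paralog, from 1019 to 635 (0.624, 0.563 to 0.689). Rrm2, the small subunit of ribonucleotide reductase, went from 2152 to 973 (0.453, 0.419 to 0.488) and Tyms, thymidylate synthase, from 1091 to 595 (0.546, 0.493 to 0.603). Cdc6 and Mcm5, which license replication origins, had fold changes of 0.740 (0.675 to 0.809) and 0.834 (0.793 to 0.877). The E2F motif was present in 12 of the 34 windows of the 29 genes matched, 35.3%, beside 2.26% of all windows.

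Of 30 genes known as targets of B-Myb, MuvB and FoxM1 in G2 and mitosis, all were tested, 27 had an interval wholly below no change and 14 were lower past 2-fold (13 with total-read or upper-quartile scaling), beside 28.0% and 3.15% of all genes tested and 36.5% and 1.31% of those with a mean of at least 100. None was higher by more than counting error, and the median log2 fold change was -0.96, lower than that of the G1/S targets. Plk1, the Polo-like kinase of mitotic entry, went from 955 to 410 (0.430, 0.382 to 0.483) and Cenpf, a kinetochore protein, from 778 to 291 (0.374, 0.325 to 0.428). Ccnb1 (cyclin B1) went from 533 to 267 (0.501, 0.431 to 0.581), Cdk1, its kinase, from 2416 to 1461 (0.605, 0.566 to 0.645) and Top2a, a topoisomerase of replicated chromosomes, from 8196 to 4398 (0.537, 0.517 to 0.557). Kif20a, a kinesin of cytokinesis, changed least of those named, from 510 to 403 (0.791, 0.692 to 0.903). A CHR element stood in 21 of the 26 windows of the 25 genes matched, 80.8%, beside 19.2% of all windows, and an E2F motif in 1 of 26, beside 2.26%. Both target lists were chosen with earlier results of these data known, so their counts describe the libraries and are not independent evidence. Genes may be known as targets partly because they carry these motifs, so the motif shares of the lists are not independent evidence either.

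**Figure D5:**
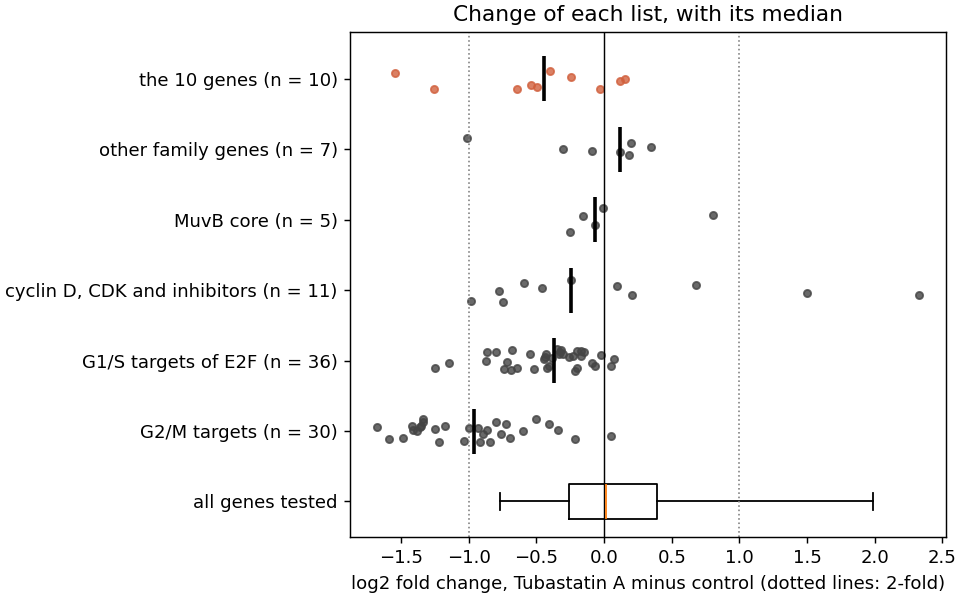
Log2 fold change (TSA minus control) of every tested gene in 6 lists, 1 point per gene with a bar at the median, above a box of all 12164 genes tested (box from the 25th to the 75th percentile, whiskers from the 5th to the 95th). The medians of the G1/S targets (-0.37) and the G2/M targets (-0.96) lie to the left of that of all genes (0.015).

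For 4 of the 5 partners of Mybl2 in the MuvB core no difference was detectable with the deposited scaling. An interval that includes no change was also found for 5341 of all 12164 genes tested. Lin9, Lin52, Lin54 and Rbbp4 had fold changes of 0.900, 0.955, 0.840 and 0.994, with intervals that include no change. Lin52 rested on 54 and 52 reads, with a wide interval of 0.639 to 1.42. With total-read scaling the interval of Rbbp4 lay wholly above no change. Lin37, a subunit needed for MuvB to repress, was higher, from 54.3 to 95.5 (1.75, 1.25 to 2.50), and rested on 54 and 96 reads.

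On the kinase side, which inactivates pocket proteins, 11 of 13 genes passed the minimum number of reads. By more than counting error, 6 were lower and 4 higher, beside 28.0% and 28.1% of all genes tested. Ccnd2, the D-type cyclin with the most reads, had 25214 in the control and 29104 in the TSA library (1.15, 1.13 to 1.17), and Ccnd3 had 2938 and 2482 (0.845, 0.801 to 0.892). Their kinases were lower, with Cdk4 at 0.726 (0.673 to 0.783) and Cdk6 at 0.583 (0.398 to 0.831). The inhibitors diverged. Cdkn1b, which encodes p27, a brake in resting T cells, went from 303 to 486 (1.60, 1.38 to 1.85). Cdkn1a, which encodes p21, went from 1395 to 829 (0.595, 0.545 to 0.648), and Cdkn2c, which encodes the CDK4 and CDK6 inhibitor p18, from 102 to 50.8 (0.505, 0.350 to 0.707). The 2 genes of this list past 2-fold, named after their values were seen, were Ccnd1 (16 and 85 reads) and Cdkn1c (13 and 39 reads), both higher and both at low counts, beside 11.5% of all genes tested that were higher past 2-fold.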

How the data were processed

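RNA of 1 control and 1 TSA-treated culture was sequenced from QuantSeq libraries as single-end 75-nt reads and analysed by the authors with ExDEGA. The submitters' processing notes name mm10, Bowtie2 and bedtools, and the annotation, normalization and use of strand are not given in the sources used here. The deposited values are log2 of a normalized count plus 1, already scaled between libraries by the authors. Taken back from log2, low values fell on steps of 1.005 (control) and 0.995 (TSA) normalized counts per read. Over 99.9% of genes with 1 to 300 reads lay within 0.1 of a whole read, which gave 10846166 and 10432628 reads. Because the values have 3 decimals, the largest counts are known only approximately.

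Fold changes are deposited TSA minus deposited control values, which keep the 1 count added by the authors. Genes with at least 10 reads in 1 library were tested and 2-fold, the study's threshold, was the call. No p-value was computed. Clopper-Pearson 95% intervals cover counting error only, since each condition had 1 library. They treat reads as independent. Copies made by PCR could not be told apart, so the intervals may be too narrow even for counting error. Ratios of 2 genes' folds are conditional odds ratios. A nominal floor of 3 reads was set, a normalized count of 3.01 in the control and 2.99 in the TSA library. Counts below it were still recovered. Text names all 10 genes, their relatives, the MuvB core and preset genes of the other lists, and 3 more (Ung, Ccnd1 and Cdkn1c) chosen after their values were seen. The genes and lists were chosen with earlier results of these data known. Steps were tested on simulated data. Computations used scipy 1.17.1, numpy 2.4.6, pandas 2.3.3 and matplotlib 3.10.9 under Python 3.11.15. Alternatives covered scaling, pseudocount (0.1 and 5), the filter on low counts and the threshold.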

Additional observations from a re-analysis of the deposited data

How the results depend on the processing

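No paired analysis was possible because each condition had a single library. Leaving out a replicate was likewise not possible. Foxm1 and E2f8 passed 2-fold under the 3 other scalings, both pseudocounts and the 3 other filters, and 7 of the 10 genes had an interval below no change under the 3 other scalings. The median log2 fold change of the 10 genes ranged from -0.45 to -0.38. With a 1.5-fold threshold, 3 of the 10 genes, 10 of the G1/S targets and 25 of the G2/M targets passed, all lower, beside 8.34% of all genes tested and 5.90% of those with a mean of at least 100 that were lower past it. With the whole interval required beyond 2-fold, 1 of the 10 genes (Foxm1), 2 of 36 G1/S targets and 11 of 30 G2/M targets passed, all lower. The share of all genes tested that pass this rule was not computed. E2f1 changed sign with the scaling, as given above. Scaling by total reads moved the median of all genes tested from 0.015 to 0.085. A difference in E2f1, Rb1 or Rbl1 smaller than its interval could not be detected at this depth.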
